A study of Rattus norvegicus with 23 samples.

Results

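Calcium handling by the sarcoplasmic reticulum was followed in 10 genes over 6 regions of the rat heart and its great vessels. The 10 members were the pump *Atp2a2*, its small membrane regulators *Sln*, *Pln* and *Strit1*, the release channel *Ryr2* with *Trdn* and *Jph2*, and the calcium binders *Casq1*, *Casq2* and *Hrc*. A gene was a member when the accession that the array gives for a probe belonged to it in RefSeq, and all 10 were among the 16544 genes measured on every array and among the 16089 that entered the tests. They were measured by 15 probes, with 3 for *Atp2a2*, 2 each for *Pln*, *Ryr2* and *Trdn*, and 1 for each of the others. Tissue of male Wistar rats, 8 to 11 weeks old and with no treatment named in the labels, was hybridised to 23 single-colour Agilent arrays, 1 per sample. Left atrium (LA), left ventricle (LV), sinoatrial node region (SA), pulmonary vein (PV) and pulmonary artery (PA) had 4 arrays each and right ventricle (RV) had 3. Each SA sample joined the tissue of 2 rats, and the LV was cut into pieces, so that LV samples may share a rat. The labels do not tie arrays to rats, and p-values here measure only the spread between these samples. In the tests, V is the mean of the LV and RV means.

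In the heart muscle cell, an action potential opens the ryanodine receptor in the sarcoplasmic reticulum membrane, calcium leaves the store, and the myofilaments contract. Relaxation follows as the calcium pump SERCA, with SERCA2a from *Atp2a2* as its cardiac form, returns calcium to the store. Phospholamban, from *Pln*, and sarcolipin, from *Sln*, are short membrane peptides that slow the pump, and phosphorylation of phospholamban by protein kinase A lifts that brake. DWORF, from *Strit1*, is a peptide that competes with phospholamban for the pump and so favours uptake. Calsequestrin binds calcium inside the store and, with triadin and junctin, tethers to the release channel. Junctophilin holds the store membrane close to the cell surface membrane.

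Levels are given as the authors' normalized probe intensity, in arbitrary units, with the highest probe of a gene on each array taken for that gene. Differences are of log2(intensity + 1) ± SE from a limma fit of the 6 region means on all 23 arrays, with p-values adjusted by Benjamini-Hochberg over all 16089 genes. A gene is called where that adjusted p is below 0.05. Intensities of different probes are not on 1 scale, so levels are compared between regions of a gene and never between genes. The comparisons share arrays, so they are not independent of each other.

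Between 58.6% and 79.8% of probes were well above background on an array, and arrays of a region correlated with r of 0.97 to 0.99 over the genes tested. Summed markers of the cardiac myocyte, with 10 of 12 listed genes on the array and each of the 10 well above background on every LA, SA, PV, LV and RV array, had log2 levels of 20.8 to 21.1 in LA, 21.2 to 21.5 in SA, PV, LV and RV, and 17.1 to 17.7 in PA. Smooth muscle markers, with 7 of 7 measured, had log2 levels of 18.9 to 19.1 in PA and 14.7 to 16.1 elsewhere. In PA, 8 of the 10 myocyte markers were well above background on every array. The arrays lay on 3 slides with 2 rows each, and the share of probes above background differed between rows. The called differences of the members kept their direction in 56 of 56 values within a row and 84 of 84 within a slide. PA replicate 1 had the highest summed atrial markers of PA, and its values and those of RV replicate 2 are given beside the gene they touch, *Sln*.

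Over the 6 regions, 10 of 10 members were called, against 64.4% of all genes tested. The measured region means of *Sln* spanned 11.11 log2 units. *Strit1* was not well above background in SA and PV, so its span has only a lower bound, given with its values. It was narrowest for *Jph2*, at 0.73, and *Casq1*, at 1.42. *Ryr2* spanned 5.41 and *Trdn* 4.99. The 4.43 of *Pln* sets A_44_P226941 in LV against A_44_P1082908 in PA, so it crosses probes and is not ranked against these.

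**Figure D1:**
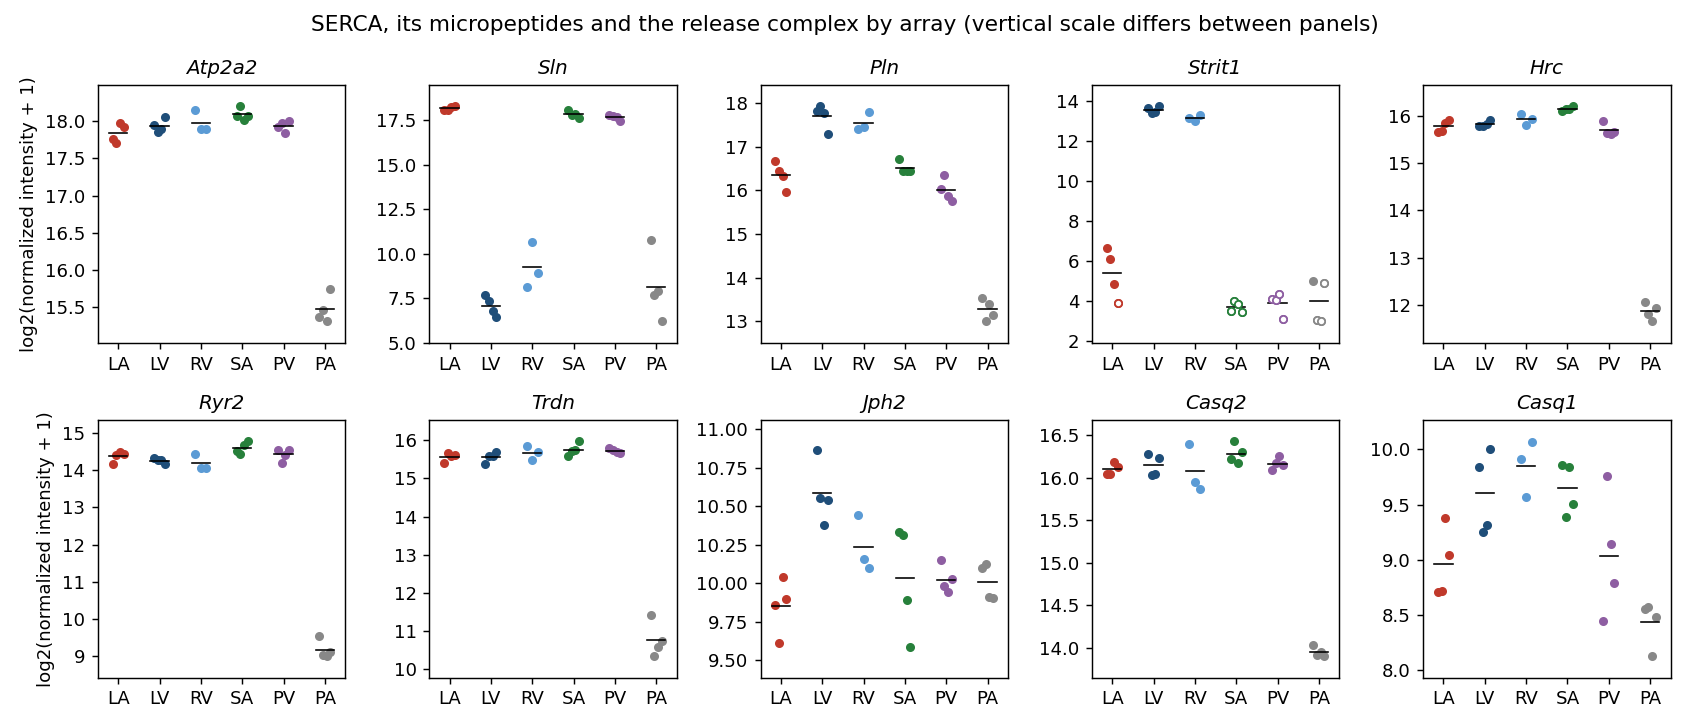
Level of each member on every array, as log2(normalized intensity + 1) on the vertical axis, by region on the horizontal axis, with 1 panel per gene and 1 point per array. Open symbols are values not well above background. *Sln* is high on all LA, SA and PV arrays, *Strit1* on all LV and RV arrays, and *Atp2a2*, *Ryr2*, *Trdn*, *Casq2* and *Hrc* are similar in the 5 regions other than PA.

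The pump gene *Atp2a2* lies at chr12:39733519-39782942 of GRCr8. Its LA intensities were 221300, 213291, 257433 and 249481, and its SA intensities were 276611, 301181, 266414 and 276394. The 7 ventricular arrays ran from 238154 to 291355 with a median of 244504, and PV ran from 234376 to 262831. SA lay above all LA arrays, with a difference of 0.25 ± 0.09, yet this was not called (adjusted p = 0.080). The probes parted here, since A_44_P187080 had −0.15 ± 0.09 in SA minus LA, and its difference from the value of A_64_P096184 was −0.41 ± 0.11 (adjusted p = 0.019). V and LA overlapped, at 0.12 ± 0.08 (adjusted p = 0.29), and under quantile normalization the sign turned, to −0.19 (adjusted p = 0.045). PV and LA overlapped too, at 0.09 ± 0.09 (adjusted p = 0.61). Without PA replicate 4, which changes only the shared spread, the SA difference was called (adjusted p = 0.042). From the highest level down, the order by the highest probe was SA, RV, LV, PV, LA and PA, and only the step from LA to PA was called. That step sets A_64_P096184 in LA against A_44_P187080 in PA, so it compares different probes. PA is given by each probe below.

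RefSeq promoters were at hand for 8 of the 10 members, all but *Sln* and *Strit1*. To set a gene that was not called between V and LA beside one that was, the 250 bases before the start are shown, 5′ to 3′ on the gene's strand in GRCr8, with CpG dinucleotides in capitals, for *Atp2a2* (chr12:39733269-39733518, plus strand) and *Pln* (chr20:33172244-33172493, plus strand; this start lies inside the gene's RefSeq bounds).
Atp2a2: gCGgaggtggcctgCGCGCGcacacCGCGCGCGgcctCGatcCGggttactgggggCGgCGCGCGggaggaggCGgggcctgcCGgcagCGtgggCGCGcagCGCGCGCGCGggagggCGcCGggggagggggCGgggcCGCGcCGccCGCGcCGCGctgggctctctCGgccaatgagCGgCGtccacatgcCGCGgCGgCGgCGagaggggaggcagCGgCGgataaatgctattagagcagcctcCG
Pln: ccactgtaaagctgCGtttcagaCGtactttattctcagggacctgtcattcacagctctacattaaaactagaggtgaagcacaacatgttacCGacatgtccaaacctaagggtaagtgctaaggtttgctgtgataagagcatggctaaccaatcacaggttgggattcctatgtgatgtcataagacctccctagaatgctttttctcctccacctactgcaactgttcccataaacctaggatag
The *Atp2a2* stretch is 80% G or C with 45 CpG, and the *Pln* stretch is 44% with 3 CpG. Over all promoters in the table, the median is 51.2% with 5 CpG. *Ryr2* is also rich in CpG, at 72% and 23, whereas *Trdn* (44%) and *Hrc* (58%) have 0.

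Among the regulators, *Sln* (chr8:63117577-63144290) had the largest measured difference between V and LA. Its LA intensities were 281023, 280521, 311967 and 319510. In LV they were 204.7, 163.2, 111.2 and 86.1, and in RV 286.1, 1613.4 and 479.8. All ventricular arrays lay below all LA arrays, and all ventricular arrays were well above background. The V minus LA difference was −10.02 ± 0.57, or 1042-fold lower in V (adjusted p = 8.92e-11). SA had 274778, 231608, 235276 and 205554, and PV had 227061, 221770, 210624 and 179502. Both lay below all LA arrays, with differences of −0.34 ± 0.64 for SA (adjusted p = 0.80) and −0.51 ± 0.64 for PV (adjusted p = 0.70). These 2 differences were not called with a spread shared over all regions, in which the SD of *Sln* was 1.28 in RV and 1.90 in PA against 0.10 in LA. With only the arrays compared, the PV difference was called (adjusted p = 0.025) and the SA difference was not (adjusted p = 0.081). Against V, *Sln* was higher by 9.69 ± 0.57 in SA (adjusted p = 1.48e-10) and by 9.51 ± 0.57 in PV (adjusted p = 1.75e-10).

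Between the ventricles, the LV minus RV difference of *Sln* was −2.17 ± 0.69, with LV below RV on every array, and was not called (adjusted p = 0.20). RV replicate 2, at 1613.4, had the highest RV level of 3 of 6 atrial markers. For *Mybphl* it had 545 against 89 and 97.8 on the other two arrays, but for *Myl4* it had 197250 against 219363 and 209182, and for *Kcnj3* 1354.1 against 2297.2 and 1538.6. The summed atrial markers of the RV arrays lay within 17.87 to 17.94 on the log2 scale, a sum that consists mostly of *Myl4*. PA replicate 1 had a *Sln* intensity of 1729 against 208.1, 243.4 and 72.7, and the highest PA level of 6 of 6 atrial markers, with *Mybphl* at 1238.3 against 104.1, 152.1 and 69.2. Without both arrays, the *Sln* difference was −10.38 for V minus LA and −1.46 for LV minus RV (adjusted p = 0.15). Without PA replicate 1 alone, LV minus RV stayed at −2.17 and was called (adjusted p = 0.032). The part of the atrial markers of these arrays in the *Sln* values was not tested.

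**Figure D2:**
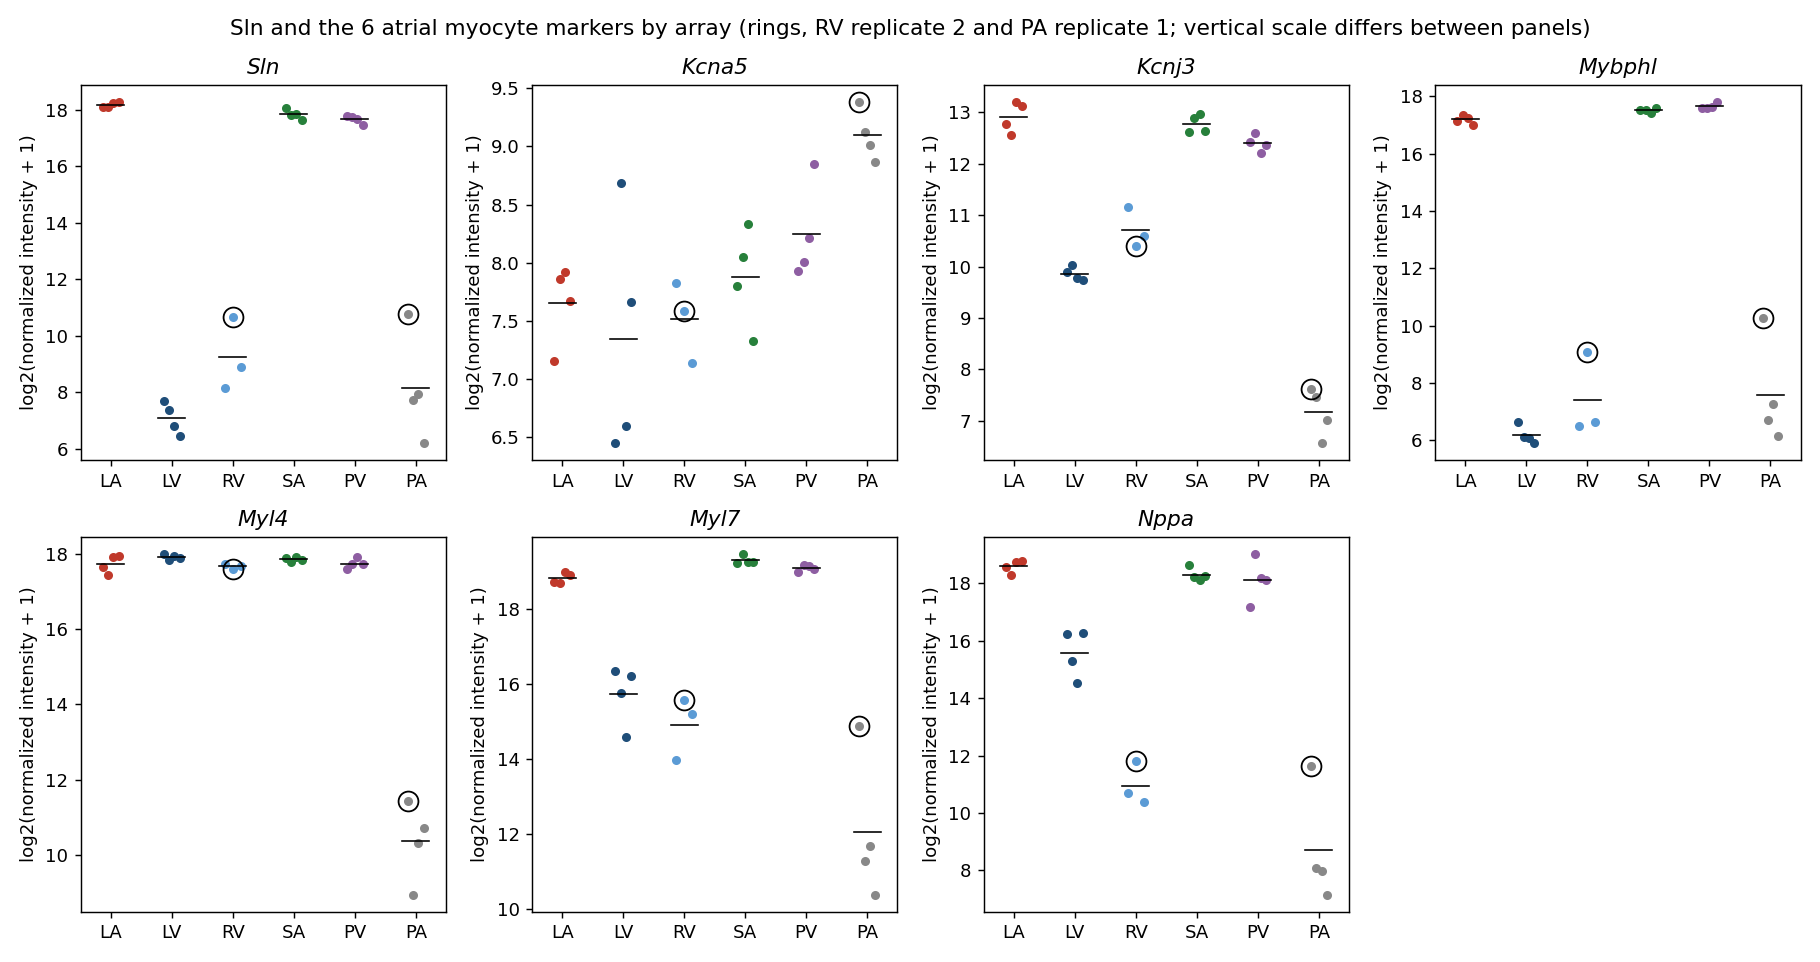
*Sln* and the 6 atrial markers *Kcna5*, *Kcnj3*, *Mybphl*, *Myl4*, *Myl7* and *Nppa* on every array, as log2(normalized intensity + 1) on the vertical axis by region. Rings mark RV replicate 2 and PA replicate 1. PA replicate 1 is the highest PA array in all 7 panels, and RV replicate 2 is the highest RV array for *Sln* and 3 of the 6 markers.

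*Pln* (chr20:33166512-33182241) went the other way, and by far less. Its LA intensities were 104183, 89190.9, 82610.9 and 64110.7. In LV they were 231710, 248805, 222382 and 161788, and in RV 173339, 180346 and 226522. All 7 ventricular arrays lay above all LA arrays, and the difference was 1.27 ± 0.15, or 2.42-fold (adjusted p = 1.75e-06). SA had 107929, 88527.6, 89417.7 and 89840.9, and PV had 66791.3, 84341.8, 60070.4 and 55350.5. SA and LA overlapped, with a difference of 0.16 ± 0.17 (adjusted p = 0.61). SA minus V was −1.11 ± 0.15 (adjusted p = 1.24e-05) and PV minus V was −1.62 ± 0.15 (adjusted p = 8.34e-08). PV lay below all SA arrays, at −0.51 ± 0.17, and was not called (adjusted p = 0.12).

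The 2 *Pln* probes gave the same ventricular excess, 1.38 and 1.27, but parted in SA. The probe A_44_P1082908 was 0.74 ± 0.15 higher in SA than in LA (adjusted p = 0.0036), and A_44_P226941 was 0.14 ± 0.20 higher (adjusted p = 0.76). The difference of these differences was −0.60 ± 0.19 (adjusted p = 0.014). Against V, SA was −0.63 ± 0.13 by A_44_P1082908 (adjusted p = 0.0019) and −1.13 ± 0.17 by A_44_P226941 (adjusted p = 8.06e-05), and these differed by −0.50 ± 0.17 (adjusted p = 0.024). In PV minus SA the first probe was called, at −0.69 ± 0.15 (adjusted p = 0.026), and the second was not, at −0.55 ± 0.20 (adjusted p = 0.23), while the difference between them was 0.14 ± 0.19 (adjusted p = 0.56). The SA level of *Pln* relative to LA and the size of its gap to V thus depended on the probe.

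*Strit1* (chr2:150084857-150087721), the peptide that favours uptake, was a ventricular transcript. In LV it had 12728.5, 10931.7, 11234.2 and 13608.1, and in RV 9209.9, 8332.2 and 10113.8. In LA it had 99.6, 67.8, 27.2 and 13.8, with 3 of 4 arrays well above background. In SA (9.9 to 14.7) and PV (7.4 to 19) no array was well above background. V minus LA was 7.998 ± 0.46 (adjusted p = 9.31e-11), and 7.94 with the dim LA array set to the lowest signal above background. Against SA and PV only a lower bound can be had, as the bright group's mean over the lowest signal well above background on each array. LV was at least 336-fold and RV at least 256-fold higher than SA, and LV was at least 405-fold and RV at least 308-fold higher than PV. LV exceeded RV on every array, by 0.39 ± 0.55 (adjusted p = 0.89). The SA minus LA difference, −1.67 ± 0.51, was called (adjusted p = 0.032), but SA has only a bound, with a mean of 5.17 against 5.37 in LA, and the call was lost under normexp background correction (adjusted p = 0.46). Leaving out LA replicate 1 (adjusted p = 0.12), LA replicate 2 (0.11), SA replicate 1 (0.072), SA replicate 3 (0.058) or SA replicate 4 (0.077) also lost it. PV minus LA was −1.49 ± 0.51 (adjusted p = 0.062), and it was called without LA replicate 4 (adjusted p = 0.010) or PA replicate 1 (0.049), with PV likewise only a bound.

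Thus *Sln* was high in LA, SA and PV, whereas *Pln* and *Strit1* were both higher in LV and RV, by gaps of different size. The specificity measure (SPM) divides a region's level by the root of the summed squares over LA, V and SA, and reaches 1 for a gene found in 1 region. Here V is the mean of the 7 ventricular arrays. On the log2(intensity + 1) scale, which the study used, it was 0.899 for *Strit1* in V and 0.605 for *Pln* in V. For *Sln* it was 0.681 in LA, 0.668 in SA and 0.300 in V, and for *Atp2a2* 0.573, 0.577 and 0.582 in LA, V and SA. On the linear scale the same measure was 0.99999 for *Strit1* in V, 0.852 for *Pln* in V and 0.0011 for *Sln* in V, so its size depended on the scale. Both *Strit1* values use its measured SA level, which was not well above background, so they are not exact. Over the 19 arrays without PA, *Sln* correlated with *Pln* at r = −0.907 and with *Strit1* at r = −0.969, and *Pln* with *Strit1* at r = 0.931. These describe arrays that share their regions, and no test is attached. The correlations of *Strit1* include its SA and PV values, none of which was well above background.

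The release channel *Ryr2* (chr17:63081527-63667141) varied little among the cardiac regions beside its drop in PA. Its mean intensity was 21194 ± 1966 (SD, n = 4) in LA, 24816 ± 2634 in SA, 21953 ± 2347 in PV, 19416 ± 894 in LV and 18658 ± 2801 (SD, n = 3) in RV. SA lay above all ventricular arrays, by 0.38 ± 0.11 (adjusted p = 0.012), and V minus LA was −0.16 ± 0.11 (adjusted p = 0.30). Under quantile normalization V minus LA was −0.31 and called (adjusted p = 0.039), and PV minus V was 0.32 and called (adjusted p = 0.038) where it had been 0.21 ± 0.11 (adjusted p = 0.16). Without SA replicate 4 the SA excess over V was 0.32 (adjusted p = 0.057), and under normexp background correction it was 0.31 (adjusted p = 0.066). The second *Ryr2* probe gave 0.51 ± 0.12 for the same comparison (adjusted p = 0.0042), and 0.56 ± 0.14 for SA minus LA (adjusted p = 0.013), where the first gave 0.23 ± 0.13 (adjusted p = 0.35). The difference between the probes for SA minus LA did not pass the test, at 0.33 ± 0.13 (adjusted p = 0.15).

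*Trdn* (chr1:25774765-26230069), whose protein links calsequestrin to the channel, was called between V and LA by only 1 of its 2 probes. By the highest probe, A_44_P123550, V minus LA was 0.06 ± 0.14 (adjusted p = 0.80), with overlapping arrays. The probe A_44_P191715, which carries the same RefSeq accession, had LA intensities of 4988.2, 4863.6, 4248.8 and 3903.9. In LV it had 513, 484.2, 460.7 and 282.2, and in RV 421, 364.2 and 599.3. All ventricular arrays lay below all LA arrays, and the difference was −3.35 ± 0.19, or 10.2-fold (adjusted p = 1.69e-10). The 2 probes' V minus LA differences differed by −3.41 ± 0.21 (adjusted p = 4.34e-10). They also differed for SA minus V, by 2.59 ± 0.21 (adjusted p = 2.44e-08), and for PV minus V, by 2.95 ± 0.21 (adjusted p = 3.39e-09). Where on the transcript each probe lies was not analysed here.

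**Figure D3:**
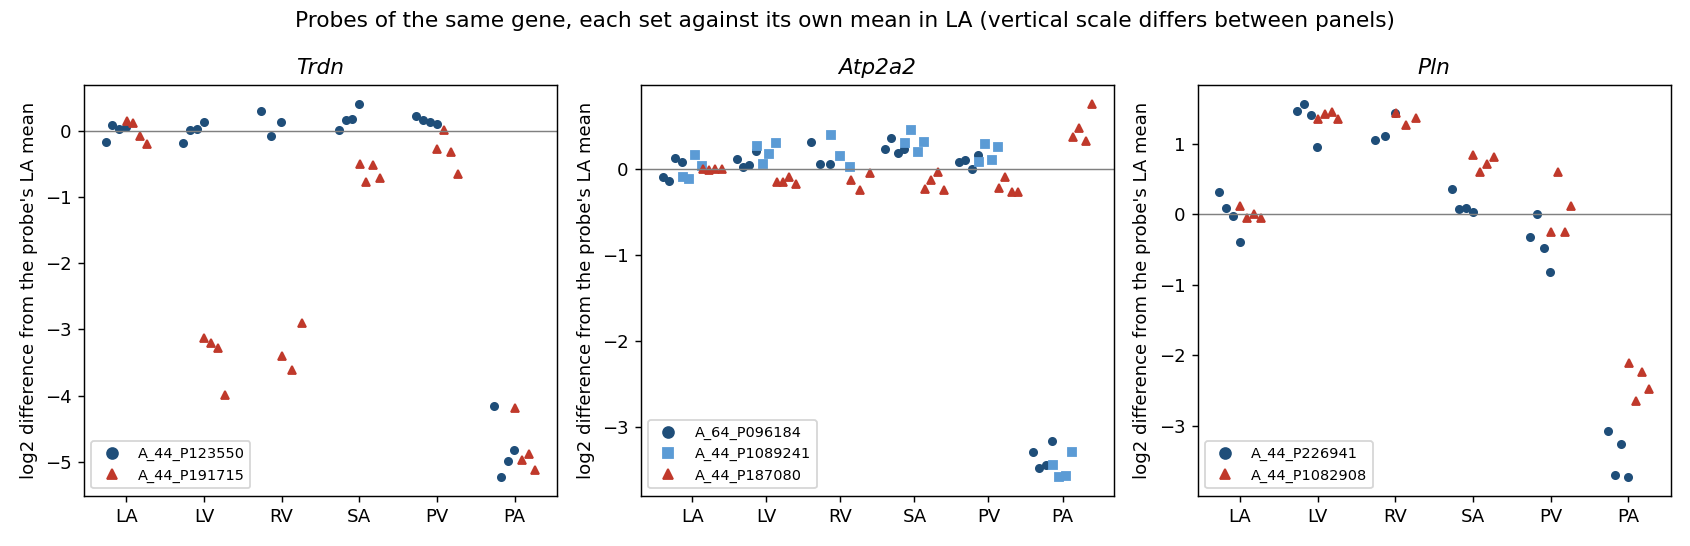
Probes of *Trdn*, *Atp2a2* and *Pln* on every array by region, each as log2(intensity + 1) relative to that probe's own LA mean, with 1 colour per probe. One *Trdn* probe drops in LV and RV while the other is level, and 1 *Atp2a2* probe rises in PA while the other 2 fall.

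*Jph2* (chr3:172414246-172478678), which ties the store to the surface membrane, had its highest mean in LV, which was not told apart from RV (0.35 ± 0.16, adjusted p = 0.43). Its intensity was 783.4 to 1054.3 in LA and 1096.3 to 1862.1 over the 7 ventricular arrays, with no overlap. V minus LA was 0.56 ± 0.13, or 1.47-fold (adjusted p = 0.0023). By ventricle, LA minus LV was −0.73 ± 0.15 (adjusted p = 0.00063), and LA minus RV, at −0.38 ± 0.16, was not called (adjusted p = 0.087). SA minus V was −0.38 ± 0.13 (adjusted p = 0.037) and PV minus V was −0.38 ± 0.13 (adjusted p = 0.029), in both cases with overlap. Without LV replicate 1 these became −0.33 (adjusted p = 0.067) and −0.34 (adjusted p = 0.054), and without RV replicate 1 they became −0.33 (adjusted p = 0.090) and −0.33 (adjusted p = 0.070). The SA call was also lost without SA replicate 3 (adjusted p = 0.11) or SA replicate 4 (0.21), and the PV call without PV replicate 2 (0.070), PV replicate 3 (0.075) or PV replicate 4 (0.059). Under normexp the adjusted p was 0.072 for SA and 0.073 for PV, and with the array row as a block it was 0.069 and 0.054. For SA it was also 0.12 with only the arrays compared and 0.059 with the scanner signal scaled to the 75th percentile. LV alone was called above SA (adjusted p = 0.0080) and PV (0.0063), and RV alone was not (0.43 and 0.38).

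Of the calcium binders, *Casq2* (chr2:192214556-192270821), the cardiac calsequestrin, was not called in any comparison among the cardiac regions and PV. Its mean intensity was 70385 ± 3332 in LA, 79712 ± 6321 in SA, 73420 ± 3572 in PV, 72785 ± 6459 in LV (SD, n = 4 each) and 69857 ± 14380 in RV (SD, n = 3). V minus LA was 0.01 ± 0.09 (adjusted p = 0.95), and −0.22 under quantile normalization (adjusted p = 0.032). SA minus V was 0.17 ± 0.09 (adjusted p = 0.17), and 0.25 without RV replicate 1 (adjusted p = 0.013). *Casq2* was the only one of the 8 members searched with a match to the MEF2 motif CTAAAAATA in the 250 bases before its start, on the opposite strand, 148 to 140 bases before the start. MEF2 factors are muscle transcription factors, and 0.442% of the 33469 promoters in the table hold this motif on either strand. The stretch, chr2:192214306-192214555 on the plus strand, has the match in capitals, read here as the reverse complement of the motif.
Casq2: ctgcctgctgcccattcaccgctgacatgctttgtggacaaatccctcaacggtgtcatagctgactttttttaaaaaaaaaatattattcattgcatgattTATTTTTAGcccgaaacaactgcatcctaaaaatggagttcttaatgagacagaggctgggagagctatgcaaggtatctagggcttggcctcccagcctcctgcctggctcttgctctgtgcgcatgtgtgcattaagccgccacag
Of the other motifs searched on both strands, the E-box CAGCTG was in *Casq1* and in 12% of promoters, and the GATA motif AGATAA (10.3%), the T-box motif AGGTGTNA (2.6%) and the E-boxes CACGTG (5.59%) and CATCTG (14%) were in none of the 8 members in the table. A match describes these letters alone.

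*Casq1* (chr13:87203021-87212710), the calsequestrin best known from skeletal muscle, was higher in V than in LA. Its intensity was 417.6 to 665 in LA and 607.9 to 1073.7 over the 7 ventricular arrays, and the groups overlapped. V minus LA was 0.76 ± 0.21, or 1.70-fold (adjusted p = 0.0084). SA, at 669.6 to 927, lay above all LA arrays by 0.69 ± 0.24, which was not called (adjusted p = 0.063). It was called without LA replicate 3 (adjusted p = 0.039), PV replicate 1 (0.042) or PV replicate 2 (0.029), and also under normexp (0.013), the filter on genes well above background (0.048) and a trend in the prior variance (0.046). PV minus V was −0.69 ± 0.21 (adjusted p = 0.017), −0.50 without PV replicate 1 (adjusted p = 0.090) and −0.61 without PV replicate 4 (adjusted p = 0.062). With LV alone as V the adjusted p of PV minus V was 0.082, and with only the arrays compared it was 0.064. PV minus SA was −0.61 ± 0.24 (adjusted p = 0.19), and −0.86 without PV replicate 2 (adjusted p = 0.039). Summed skeletal muscle markers were 10.0 to 10.9 on the log2 scale over the 6 regions.

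*Hrc* (chr1:104949750-104953475), a histidine-rich calcium-binding protein of the store lumen, had its highest mean in SA. It had 69919.9, 72016.6, 72430.2 and 74916.4 in SA and 51419.5, 52328.5, 58746.8 and 61821.8 in LA. PV had 60108, 50724, 49756.7 and 51312.4, and the 7 ventricular arrays ran from 56234.7 to 67448.1. All SA arrays lay above all arrays of the other regions, but SA was not told apart from RV alone (0.22 ± 0.10, adjusted p = 0.13). The excess of SA was 0.37 ± 0.09 over LA (adjusted p = 0.0080) and 0.27 ± 0.08 over V (adjusted p = 0.016), and PV minus SA was −0.45 ± 0.09 (adjusted p = 0.0086). Without SA replicate 4, the excess over V was 0.25 (adjusted p = 0.052), under quantile normalization the excess over LA was 0.21 (adjusted p = 0.13), and with only the SA and PV arrays the adjusted p over PV was 0.072. PV minus V was −0.19 ± 0.08 (adjusted p = 0.078), and −0.25 without PV replicate 1 (adjusted p = 0.028). It was −0.22 with the slide as a block (adjusted p = 0.049) and −0.22 without RV replicate 2 and PA replicate 1 (adjusted p = 0.039).

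Counted together, 5 of 10 members were called in V minus LA, 4 higher and 1 lower, where 35.4% of all genes tested were called. The members' median difference was 0.11, beside 0.09 for all genes. In SA minus LA, 2 of 10 were called, against 15.3% of all genes, and the medians were 0.18 and 0.01. In SA minus V, 6 of 10 were called, 3 each way, against 28.1%. In PV minus LA limma called 0 of 10, against 13.5% of all genes, with 1 member at an unadjusted p under 0.05. PV minus SA had 1 of 10 (3.49% of all genes) and PV minus V had 5 of 10 (33.9%). In LV minus RV limma called 0 of 10, against 0.522% of all genes, with 2 members, *Sln* and *Jph2*, at an unadjusted p under 0.05. Arrays did not overlap for 4 members in V minus LA, 4 in SA minus LA, 5 in SA minus V, 2 in PV minus LA, 3 in PV minus SA, 3 in PV minus V and 2 in LV minus RV. The share of all genes without overlap, or at an unadjusted p under 0.05, was not computed. These counts therefore describe the arrays and do not set the members apart from other genes.

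**Figure D4:**
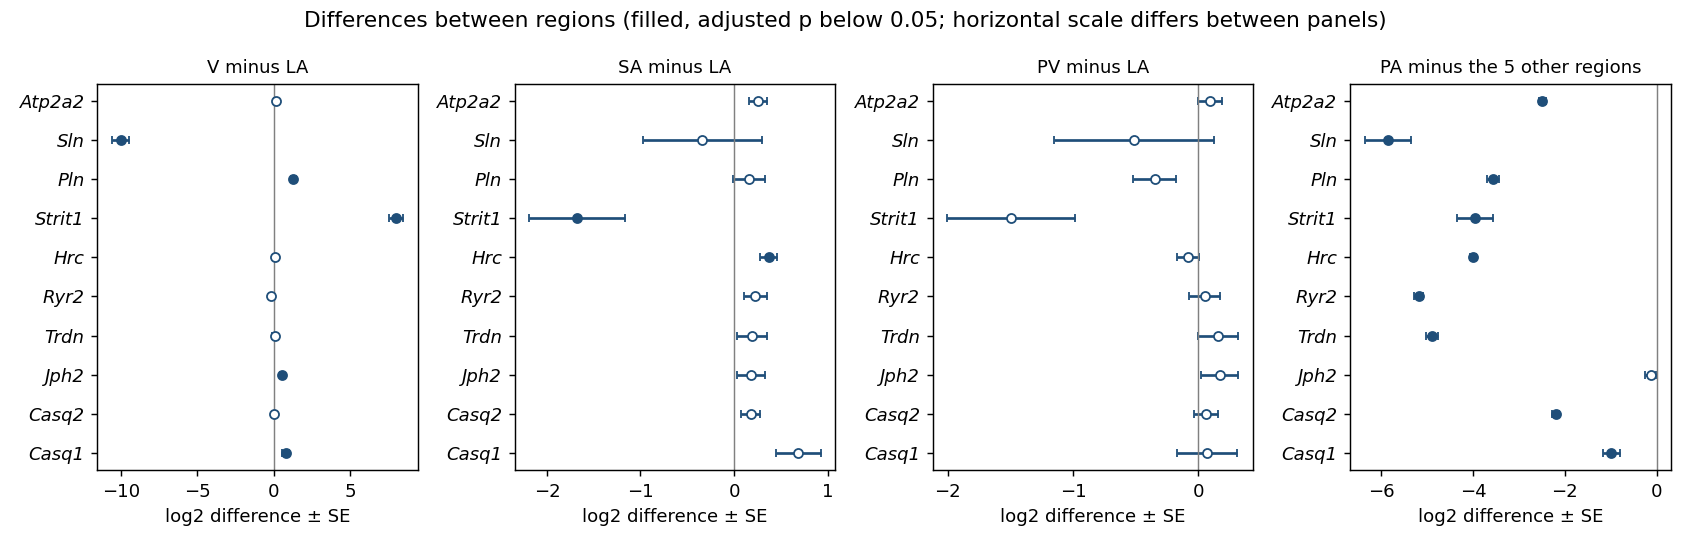
Log2 differences of the 10 members for V minus LA, SA minus LA, PV minus LA and PA minus the mean of the other 5 regions, with bars for 1 SE. Filled points have an adjusted p below 0.05. In V minus LA the largest differences are *Sln* at −10.02 and *Strit1* at 7.998, and in PV minus LA no point is filled.

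Set against the pump, each other member's log2 level minus that of *Atp2a2* on the same array was compared in the same way. In V minus LA, 5 of 9 members were called, against 29.8% of all genes. *Sln* relative to the pump was −10.15 ± 0.61 (adjusted p = 1.80e-10), *Pln* 1.15 ± 0.20 (adjusted p = 0.00018) and *Strit1* 7.88 ± 0.46 (adjusted p = 1.46e-10). *Casq1*, at 0.64 ± 0.21 (adjusted p = 0.022), and *Jph2*, at 0.43 ± 0.13 (adjusted p = 0.017), were called too. Without LA replicate 1, LA replicate 2 or RV replicate 3, *Casq1* had adjusted p of 0.071, 0.064 and 0.056, and without LA replicate 2 *Jph2* had 0.057. In SA minus LA 1 of 9 was called, against 20.9% of all genes, and *Hrc* was 0.12 ± 0.10 (adjusted p = 0.46). The 1 called was *Strit1* (adjusted p = 0.013), which has only a bound in SA, so that no size can be given. Its adjusted p was 0.16 under normexp, and 0.058 and 0.059 without LA replicate 1 or LA replicate 2. In PV minus LA limma called 0 of 9, against 9.21% of all genes, with *Strit1* as the 1 member at an unadjusted p under 0.05.

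Because the cardiac myocyte markers were lower in LA than in the other cardiac regions, the differences were also taken relative to that list. In V minus LA, *Pln* was then 1.14 (adjusted p = 0.0012), *Casq1* 0.63 (adjusted p = 0.17) and *Jph2* 0.43 (adjusted p = 0.31). *Hrc* was 0.10 in SA minus LA (adjusted p = 0.86), 0.13 in SA minus V (adjusted p = 0.79) and −0.31 in PV minus SA (adjusted p = 0.99999), so that all 3 of its SA calls were lost. *Ryr2* in SA minus V was 0.25 (adjusted p = 0.56). *Jph2* was −0.51 in SA minus V (adjusted p = 0.22) and −0.37 in PV minus V (adjusted p = 0.40), and *Casq1* was −0.68 in PV minus V (adjusted p = 0.14). *Pln*, *Sln* and *Strit1* kept their V minus LA calls.

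In PA, 9 of 10 members were called lower than the mean of the other 5 regions, against 59.1% of all genes in either direction. The medians were −3.75 for the members and 0.05 for all genes. In bulk tissue, fewer cells of a type and less RNA per cell cannot be told apart, and the myocyte markers fell in PA with these genes. *Ryr2* had 513.5 to 746.8 in PA against 17020.1 to 27928.9 on all other arrays, a difference of −5.18 ± 0.10 (adjusted p = 3.82e-19). The difference was −4.003 ± 0.07 for *Hrc* and −2.20 ± 0.08 for *Casq2*. For *Trdn* it was −4.89 ± 0.13 by A_44_P123550 and −3.26 ± 0.17 by A_44_P191715, and these differed by 1.63 ± 0.19 (adjusted p = 2.96e-08). For *Pln* the highest probe in PA is not the one that is highest on most other arrays, so each probe is given. A_44_P1082908 had −3.08 ± 0.12 and A_44_P226941 had −3.90 ± 0.15, and these differed by −0.82 ± 0.15 (adjusted p = 2.42e-05). *Casq1* had −0.99 ± 0.19, with overlap (adjusted p = 0.00012). *Sln* had −5.85 ± 0.50, and −6.58 without RV replicate 2 and PA replicate 1, with overlap since LV is low as well. *Strit1* had 31.1, 7.2, 6.8 and 28.9 in PA, with 1 of 4 arrays well above background, and V exceeded PA by 8.39 once those 3 dim PA arrays took that lowest signal. *Jph2*, which smooth muscle also expresses, had 957.4 to 1116.6 in PA and did not pass the test, at −0.13 ± 0.11 (adjusted p = 0.34). Relative to the myocyte list, 9 members had positive PA differences, from 0.12 for *Ryr2* to 5.16 for *Jph2*, and *Sln* had −0.56 (adjusted p = 0.23).

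*Atp2a2* in PA depended on the probe. By the highest probe the difference was −2.49 ± 0.07, but the highest probe is another one in PA. The probe A_44_P187080 had 41999.9, 45048.2, 40433.2 and 54788.9 in PA and 26798 to 32400 elsewhere, an excess of 0.62 ± 0.07 in PA (adjusted p = 2.95e-07). The other two probes had −3.46 ± 0.07 and −3.65 ± 0.08. Against the first of them, the difference of the differences was 4.07 ± 0.09 (adjusted p = 2.50e-19). The probe that was higher in PA carries another RefSeq transcript accession of *Atp2a2* than the 2 that were lower. SERCA2b, the form of the pump in smooth muscle and most other cells, comes from the same gene by alternative splicing. Which splice form each probe reads was not analysed here.

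Relatives of the members were taken from 3 lists, of other pumps and pump regulators, other release and junction proteins, and other luminal calcium binders, with 40 of 45 genes measured. In V minus LA, 5 were called higher and 13 lower. Of the pumps and regulators, 3 of 15 were higher and 6 of 15 lower, of the junction list 2 and 5 of 18, and of the luminal binders 0 and 2 of 7, together 45% of the genes measured, beside 35.4% of all genes. The median differences of the 3 lists were −0.22, 0.02 and −0.02, beside 0.09 for all genes. *Sypl2*, a junctional membrane protein, was higher in V by 2.03 ± 0.21 (adjusted p = 2.68e-07). *Hspb6*, a small heat shock protein, was higher by 1.69 ± 0.13 (adjusted p = 3.71e-09), and *Atp2a3*, the third SERCA gene, by 1.02 ± 0.13 (adjusted p = 4.17e-06). *Atp2a1*, the pump of fast skeletal muscle, had a V minus LA difference of −3.14 ± 0.13 (adjusted p = 8.00e-13). *Jph3*, another junctophilin, was called lower in V (adjusted p = 2.62e-06), where no array was well above background, so that LA was at least 1.84-fold higher than LV and at least 2.0-fold higher than RV. *Itpr1*, the inositol trisphosphate receptor, had −1.29 ± 0.10 (adjusted p = 3.12e-09).

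In SA minus LA, 3 of these relatives were higher and 1 lower, or 10%, beside 15.3% of all genes. The 3 were *Sypl2* at 2.65 ± 0.23 (adjusted p = 5.49e-07), *Hspb6* at 0.95 ± 0.14 (adjusted p = 0.00015) and *Atp2a3* at 0.69 ± 0.15 (adjusted p = 0.0030). *Stim1*, a sensor of store calcium, had −0.97 ± 0.12 (adjusted p = 3.43e-05). In PV minus LA 6 were higher and 0 lower, or 15%, beside 13.5% of all genes. The largest were *Sypl2* at 1.84 ± 0.23 (adjusted p = 3.62e-05), *Jph3* at 1.49 ± 0.31 (adjusted p = 0.0028) and *Atp2a3* at 1.099 ± 0.15 (adjusted p = 5.67e-05). Both of these shares lie near or below that of all genes. In LV minus RV limma called 0 of 40, beside 0.522% of all genes. Of the 40, 4 had an unadjusted p under 0.05, a share that was not computed for all genes.

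The genes whose log2 levels ran most like each member over the 23 arrays were taken from 13100 genes by Pearson's r, as a description in which the gap between PA and the heart has a large share. *Sln* was closest to *Mybphl*, at 0.995, and *Strit1* to *Irx4*, a ventricular transcription factor, at 0.984. *Pln* was closest to *Cpt2*, at 0.990, and *Atp2a2* to *Hrc*, at 0.994. *Ryr2* was closest to *Trdn*, at 0.996, *Trdn* to *Myh8*, at 0.997, and *Casq2* was closest to *Ryr2*, at 0.991. Without the PA arrays, r was 0.540 for *Ryr2* with *Trdn*, 0.518 for *Casq2* with *Ryr2* and 0.726 for *Atp2a2* with *Hrc*. *Casq1* and *Jph2* had no gene above 0.858 and 0.870.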

How the data were processed

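RNA from rat LA, LV, RV, SA, PV and PA was labelled with Cy3 and hybridised by the authors to Agilent rat 8x60K arrays, and Agilent Feature Extraction 11.0.1.1 (named in the file headers) gave the scanner intensities. The deposited normalized intensity is the scanner's processed signal times 1 factor per array, from 0.881 to 1.52, so that the 90th percentile lay between 3984 and 3988. This product was within 2 percent of the deposited value for 99.6% to 99.8% of probes on an array. The array's accessions were paired with symbols through RefSeq (GRCr8), and 16581 genes had a probe.

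Each gene took its highest probe on an array, genes above 4 on the log2(intensity + 1) scale on at least 1 array were kept, and limma 3.58.1 in R 4.3.3 fitted 6 region means on 23 arrays. Probe-level tests ran over 43522 probes. The relative comparison subtracted *Atp2a2* or the mean of the cardiac myocyte list on each array. The script was tested on simulated data. No member probe was saturated. The number of arrays limits the precision.

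The 10 members and all gene lists were chosen with earlier results of these data known. All members were named, and from the pathway lists up to 3 in each direction with the largest called differences, provided the brighter region's arrays were all well above background. Alternatives changed the scaling, background correction, pseudocount, filter, probe choice, prior variance, blocks for slide, row and replicate number, the arrays in the fit and each array in turn.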

Additional observations from a re-analysis of the deposited data

Results flagged for a closer look

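In 50 groups of 4 arrays, 1 per member and region, the gap from the highest or lowest array to its neighbour was set against the whole range, and 2 groups passed the critical value, where chance gives about 1 in 20. *Pln* in SA had a ratio of 0.926, with SA replicate 1 at 16.72 on the log2 scale and the other three arrays at 16.43 to 16.46. SA replicate 4 took its value from A_44_P1082908 and the other SA arrays from A_44_P226941, by which SA replicate 4 was at 16.39. This ratio thus mixes probes. *Hrc* in PV had a ratio of 0.837, with PV replicate 1 at 15.88 and the other three at 15.60 to 15.65.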

How the results depend on the processing

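The counts of called members were recomputed in 464 combinations of comparison and setting, and 431 stayed within 1.5 times the value given. With quantile normalization, V minus LA had 8 called members in place of 5, and SA minus LA had 1 in place of 2, and the V minus LA differences of *Atp2a2* (−0.19) and *Casq2* (−0.22) turned negative. With normexp background correction, SA minus LA relative to *Atp2a2* had 0 in place of 1. With a pseudocount of 16, the filter on genes well above background, or a trend in the prior variance, PV minus LA had 1 in place of 0, both as measured and relative to *Atp2a2*. With only the arrays compared, SA minus LA had 1, PV minus LA 1 and PV minus SA 0. Relative to the cardiac myocyte list, the counts were 3 for V minus LA, 1 for SA minus LA, 3 for SA minus V, 0 for PV minus SA and 3 for PV minus V. Against that list PA minus the other regions turned positive for *Atp2a2* (2.80), *Pln* (1.74), *Strit1* (1.34), *Ryr2* (0.12), *Casq1* (4.31), *Casq2* (3.10), *Hrc* (1.29), *Jph2* (5.16) and *Trdn* (0.41). The list fell in PA by more than these genes did, which by construction sets that sign. The causes of the other changes were not tested.

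Leaving out 1 array at a time, the counts ran from 5 to 5 for V minus LA, 1 to 3 for SA minus LA, 3 to 6 for SA minus V, 0 to 1 for PV minus LA, 1 to 2 for PV minus SA, 3 to 5 for PV minus V (6 without RV replicate 2 and PA replicate 1), 0 to 1 for LV minus RV, and 9 to 9 for PA. Relative to *Atp2a2* they ran from 3 to 5 for V minus LA, 0 to 1 for SA minus LA and 0 to 1 for PV minus LA.

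Same-numbered samples of different regions had a mean correlation of deviations of −0.018, from −0.376 to 0.336, beside 0.007 for other numbers. These values cannot show whether same-numbered samples share a rat, so pairing stays unknown, and the main fit did not pair samples by number. With the replicate block, the member counts did not change, at 5 for V minus LA, 2 for SA minus LA and 9 for PA, and over all genes V minus LA had 5553 calls in place of 5691.

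Over all genes, SA minus LA had 2460 calls, 4164 with normexp and 563 relative to the myocyte list. V minus LA had 5691, and 1918 relative to that list. PV minus SA had 562, 176 without PV replicate 4 and 48 relative to that list. LV minus RV had 84, 144 with a trend in the prior variance, 40 without RV replicate 2 and 7 relative to that list. Relative to that list, PV minus LA had 455 in place of 2172, SA minus V 1721 in place of 4523 and PV minus V 1849 in place of 5455. Normexp moved the median of all genes to 0.19 in V minus LA and 0.17 in SA minus LA, and the share of higher calls from 52.1% to 68.3% and from 46.0% to 75.6%. The alternative of finding probes by the gene name column was not run, since the scanner tables used here hold no such column. Leaving out outlier spots, leaving out RV replicate 2 with PA replicate 1, and testing each probe by itself were chosen after seeing the data. *Strit1* in SA and PV was limited by signal over background.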
